A study of Homo sapiens with 12 samples.

Results

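The genes described here are 40 genes of autophagy and the lysosome, chosen by name from what their proteins do, with earlier results of these data known. They run from the kinase complex that starts autophagy to the enzymes that digest its cargo. All 40 were carried by the array, on 64 of its 47302 probes, and all 40 were among the 12336 genes tested. The samples were human breast cancer cells of LM, a lung metastatic subline of the established triple-negative line MDA-MB-231. LM BHLHE40-KD cells are 1 stable line made with a lentiviral short hairpin RNA against the transcription factor BHLHE40 and selected with puromycin. The control cells are called LM-EV because the study states that they carry the empty vector, while the labels name them only LM. Each line was measured untreated (0 h) and after 6 h and 48 h of hypoxia. The labels give the hypoxic cultures as 1% O2 with low glucose at 1 mg/ml, while the study's methods name the oxygen only, so effects of low oxygen and of low glucose cannot be told apart. With 1 hairpin line and 1 control line, an effect of BHLHE40 loss and any other difference between the 2 lines cannot be told apart either.

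Autophagy wraps a piece of cytoplasm in a double membrane, the autophagosome, and delivers it to the lysosome. The ULK1 kinase complex starts the process, the BECN1 and PIK3C3 lipid kinase complex marks the site with a phosphoinositide, and WIPI proteins read that mark. A pair of ubiquitin-like systems built around ATG12 and the ATG8 family then extend the membrane, and receptors such as SQSTM1 bring in the cargo. Cathepsins and glycosidases do the digestion inside the lysosome. Many of their genes, and of the genes of lysosomal membrane proteins, are switched on by TFEB and TFE3. Those factors bind the E-box CACGTG, the same class of element that BHLHE40 binds, usually as a repressor. Hypoxia is known to start autophagy in many tumour cells.

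RNA was hybridised to Illumina HT-12 arrays, and every signal below is the linear, background-subtracted and quantile-normalised fluorescence of 1 probe in arbitrary units, so signals are compared between samples and never between genes. There were 12 arrays, 2 for each of the 6 groups of line and time, on 2 slides that each held every group once. The slides are called experiment 1 and experiment 2, and pairs of values are given in that order. The study's methods speak of 2 independent experiments, and that each slide is 1 of them is assumed here, since the labels give only the slide. Neither source says what was done separately in the 2 experiments, so p-values measure the spread between arrays, which may be technical. A gene passed a comparison at an adjusted p under 0.05 (limma, with Benjamini-Hochberg adjustment over all genes tested), and the study's own rule of 1.5-fold in the same direction in both experiments is given beside it. A permutation of 2 arrays against 2 cannot reach a p below 0.333, so every call rests on limma's pooled spread. Between 20298 and 21830 probes were detected on an array, with 38 to 40 of the 40 members among them. BHLHE40 itself had signals of 1771 and 1444 at 0 h, 3410 and 4324 at 6 h and 3198 and 3585 at 48 h in BHLHE40-KD cells, against 2992 and 2716, 4283 and 6795, and 3365 and 6482 at the same times in LM-EV cells. It was lower in BHLHE40-KD cells on all 6 array pairs but passed at no time (adjusted p = 0.0894 at 0 h). VIM, CD44, AXL, MSN and KRT18 were detected on all 12 arrays and SPARC on 6, while ESR1 was detected on 1 and PGR on none. ERBB2 was detected on all 12, at 877 to 1380. CDH1 was detected on 2 arrays (at most 247) and GATA3 on 11 (42.2 to 175), both listed with ESR1, PGR and ERBB2 as genes expected to be low. Of the 6 listed leukocyte genes 5 had a probe, and their summed signal was 232 to 394 in BHLHE40-KD cells against 903 to 976 in LM-EV cells at 0 h, and CD14 was the 1 gene of the list detected on all 12 arrays (76.4 to 885). Summed signal of the 4 luminal genes was 21162 to 25618 in BHLHE40-KD cells against 12502 to 13174 in LM-EV cells at 0 h, and only KRT19 of the list was detected on all 12 arrays. The part of these 2 differences in the results was not tested. The fibroblast list summed to 137 to 473 over all arrays.

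Between the lines 13 of the 40 members differed at 1 or more times, and 7 changed in hypoxia in either line. Over all genes tested these shares were 28.2% and 9.86%, so that the line comparisons held more calls for genes in general. The 7 include NBR1, which was tested only through the group in which it was called. In BHLHE40-KD cells 6 members were higher and 3 lower than in LM-EV cells at 0 h, 7 higher and 5 lower at 6 h, and 3 higher and 5 lower at 48 h. Over all genes tested the called share was 18.2% at 0 h, 18.4% at 6 h and 16.5% at 48 h, and the members' 9, 12 and 8 of 40 lie somewhat above that share, a difference that was not tested. By the study's rule 4 members differed at 0 h, 7 at 6 h and 8 at 48 h (1 of them NBR1, detected on no array of either line at 48 h), where the background was 16.2%, 16.6% and 15.2%. The median log2 difference over the members was 0.02 at 0 h, -0.02 at 6 h and -0.16 at 48 h, against 0.02, 0.01 and 0.01 over all genes. Of the 13 members that passed between the lines, 5 passed at all 3 times: CTSB, LAMP1 and ATG12, which were lower in BHLHE40-KD cells, and NPC1 and LAMP2, which were higher. The share of all genes that passed at all 3 times was not counted, so the 5 are not read as many or few. Both directions occurred among the membrane proteins and among the proteases, as the map of log2 fold changes shows. In bulk RNA a lower signal from fewer cells of a kind and from less RNA per cell cannot be told apart. BHLHE40-KD arrays lay on the same side of their LM-EV partner on all 6 pairs for 20 members, 11 higher and 9 lower, while 39.4% of all genes did so. The arrays of the lines did not overlap for 52.5% of members at 0 h, 62.5% at 6 h and 67.5% at 48 h. Over all genes tested these shares were 55.5%, 58.7% and 54.1%, so a lack of overlap is common and sets no single gene apart.

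**Figure D1:**
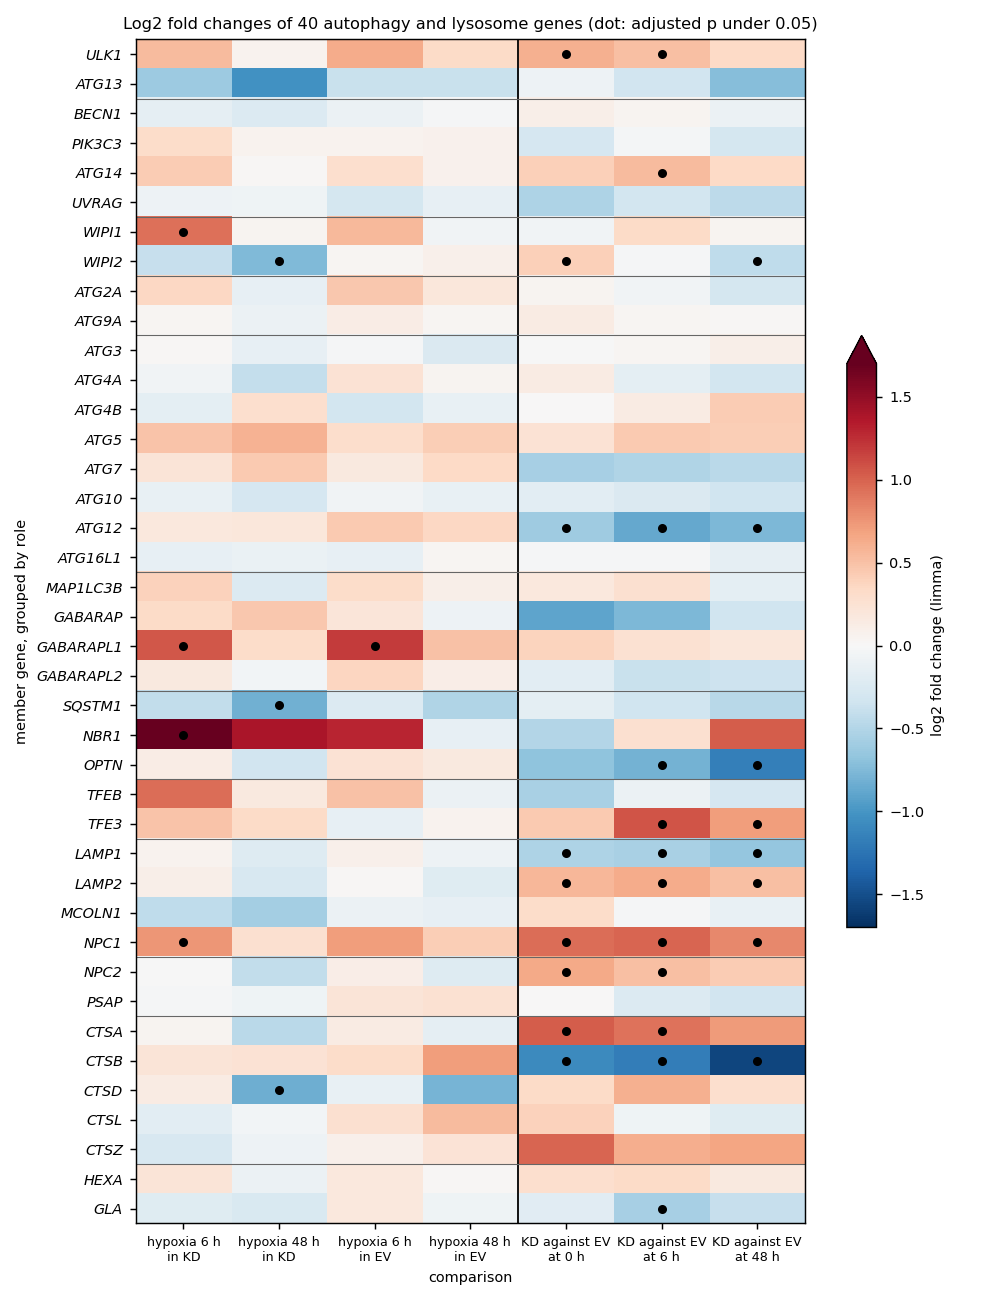
Log2 fold changes of the 40 members (rows, grouped by role) in the 4 hypoxia comparisons (columns left of the line) and the 3 comparisons of BHLHE40-KD with LM-EV cells (right of it). Red is higher and blue lower in the first-named condition, and dots mark an adjusted p under 0.05. The dots lie mostly right of the line, where CTSB at 48 h is the deepest blue (-1.56). NBR1 and TFEB were near background, so their colours are unreliable.

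At the lysosomal membrane NPC1, LAMP1 and LAMP2 passed between the lines at all 3 times. NPC1 is the membrane protein that takes cholesterol out of the lysosome. Its signal was 8742 and 8028 at 0 h, 14025 and 14208 at 6 h and 10466 and 9811 at 48 h in BHLHE40-KD cells, against 4613 and 4052 at 0 h, 7223 and 6972 at 6 h and 5383 and 6153 at 48 h in LM-EV cells. Every BHLHE40-KD array was above the LM-EV array of the same time, with no overlap at any time (54.1% to 58.7% of all genes had none at a given time). The log2 difference was 0.95 ± 0.13 (SE) at 0 h, 0.99 ± 0.13 at 6 h and 0.82 ± 0.13 at 48 h (adjusted p = 0.00337, 0.00277 and 0.00671, limma). NPC2, the soluble partner that hands cholesterol to NPC1, had signals of 46739 and 47095 at 0 h, 49269.8 and 44009 at 6 h and 34255 and 35878 at 48 h in BHLHE40-KD cells, against 28141 and 32057 at 0 h, 30695 and 34551 at 6 h and 23467 and 28577 at 48 h in LM-EV cells. It was higher in BHLHE40-KD cells by 0.64 on the log2 scale at 0 h and 0.52 at 6 h (adjusted p = 0.0181 and 0.0372), and at 48 h the difference of 0.44 did not pass (0.0671). The pair of lysosome-associated membrane proteins went opposite ways. LAMP1, an abundant glycoprotein of the lysosomal membrane, had signals of 7854 and 7674 at 0 h, 8343 and 7863 at 6 h and 7155 and 6213 at 48 h in BHLHE40-KD cells, against 11066 and 11337 at 0 h, 11432 and 12283 at 6 h and 10819 and 10307 at 48 h in LM-EV cells. Its groups did not overlap at any time, and it was lower in BHLHE40-KD cells, with log2 differences of -0.53 ± 0.12, -0.55 ± 0.12 and -0.66 ± 0.12 (adjusted p = 0.0212, 0.0192 and 0.0106). LAMP2 is the related protein that also serves fusion with autophagosomes and, in 1 splice form, chaperone-mediated autophagy. The signal of the probe tested was 9968 and 8914 at 0 h, 9981 and 10179.5 at 6 h and 8121 and 7562 at 48 h in BHLHE40-KD cells, against 6336 and 6417 at 0 h, 6409.6 and 6557 at 6 h and 5013 and 6063 at 48 h in LM-EV cells. LAMP2 was higher in BHLHE40-KD cells at all 3 times, by 0.56 ± 0.13, 0.64 ± 0.13 and 0.51 ± 0.13 on the log2 scale (adjusted p = 0.0261, 0.0177 and 0.0395). All 6 LAMP2 probes gave positive differences at all 3 times, the smallest 0.01. MCOLN1, the lysosomal calcium channel, had differences of 0.31, -0.02 and -0.12 and did not pass. Leaving out any 1 of the 4 arrays compared ended the calls of LAMP1 at 0 h and 6 h, of LAMP2 at each time and of NPC2 at 0 h (adjusted p 0.0545 to 0.219), as did leaving out any 1 except BHLHE40-KD of experiment 1 for LAMP1 at 48 h (0.0594 to 0.0730), any 1 except BHLHE40-KD of experiment 2 for NPC2 at 6 h (0.121 to 0.194, and 0.0570 without the slide term), and LM-EV of experiment 1 for NPC1 at 48 h (0.0504). Arrays of other times also ended the calls of LAMP2 at 48 h (any LM-EV array at 0 h or 6 h or BHLHE40-KD array at 6 h, 0.0566 to 0.0673) and of NPC2 at 6 h (any LM-EV array at 0 h or BHLHE40-KD array at 48 h, 0.0566 to 0.0599), while NPC1 at 0 h and 6 h passed whichever array was left out.

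**Figure D2:**
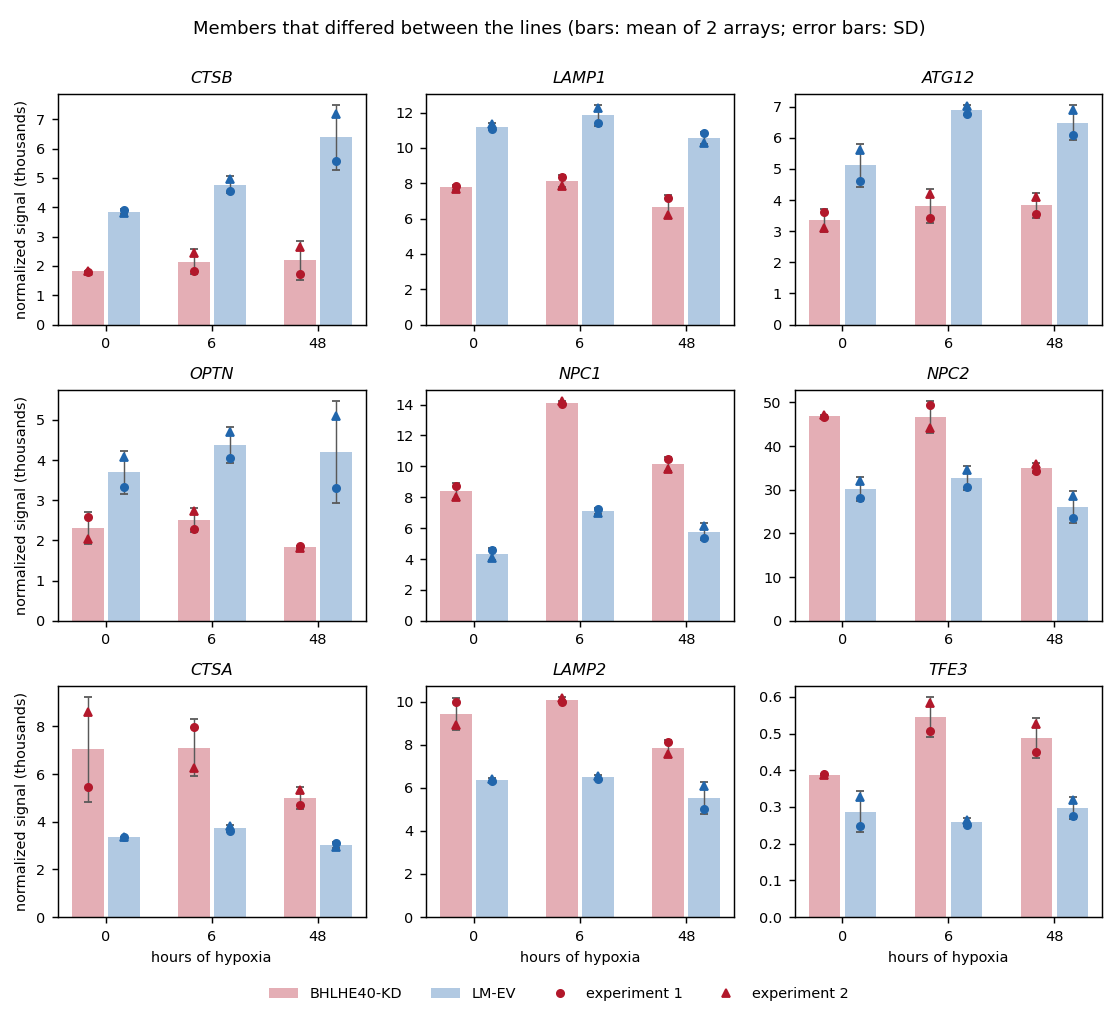
Normalised signal (arbitrary units divided by 1000) of 9 members against hours of hypoxia, BHLHE40-KD in red and LM-EV in blue. Bars are means of 2 arrays, error bars are SD, and circles and triangles are experiments 1 and 2. CTSB, LAMP1, ATG12 and OPTN are lower in BHLHE40-KD cells at every time, while NPC1, NPC2, CTSA, LAMP2 and TFE3 are higher.

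Among the proteases, cathepsin B and cathepsin A differed in opposite directions. CTSB, a cysteine protease of the lysosome that is also secreted by tumour cells, had signals of 1809 and 1826 at 0 h, 1838 and 2447 at 6 h and 1731 and 2661 at 48 h in BHLHE40-KD cells, against 3911 and 3802 at 0 h, 4570.4 and 4975 at 6 h and 5593 and 7177 at 48 h in LM-EV cells. At every time both BHLHE40-KD arrays were below both LM-EV arrays. The log2 difference was -1.08 ± 0.18 at 0 h, -1.17 ± 0.18 at 6 h and -1.56 ± 0.18 at 48 h (adjusted p = 0.00790, 0.00587 and 0.00204), and the second CTSB probe gave -1.07, -0.85 and -1.27. In LM-EV cells CTSB was 0.72 higher at 48 h than at 0 h on the log2 scale, which did not pass (0.0885). CTSA, a serine carboxypeptidase that also protects other lysosomal enzymes, had signals of 5473 and 8588 at 0 h, 7958 and 6255 at 6 h and 4681 and 5332 at 48 h in BHLHE40-KD cells, against 3373 and 3369.8 at 0 h, 3623 and 3825 at 6 h and 3125 and 2943 at 48 h in LM-EV cells. It was higher in BHLHE40-KD cells by 1.02 ± 0.22 at 0 h and 0.92 ± 0.22 at 6 h (adjusted p = 0.0187 and 0.0269), and by 0.72 at 48 h without passing (0.0624). The 2 BHLHE40-KD arrays at 0 h stood further apart than the LM-EV arrays did. CTSZ, a carboxypeptidase of the cysteine class, met only the study's rule at 0 h, with 3818 and 7346 in BHLHE40-KD cells against 2210.4 and 3228 in LM-EV cells (log2 difference 0.99, adjusted p = 0.0600). CTSL, another cysteine cathepsin, ranged between -0.20 and 0.39 over the 3 times and did not pass. CTSD, the aspartic cathepsin, was higher in BHLHE40-KD cells on all 6 pairs, with differences of 0.33, 0.60 and 0.29 that did not pass (0.266, 0.0639 and 0.333). Of the glycosidases, GLA, the enzyme missing in Fabry disease, was lower in BHLHE40-KD cells at 6 h, at 2602 and 2181 against 3604 and 3463 in LM-EV cells (-0.57 ± 0.15, adjusted p = 0.0346, and 0.0695 without the slide term). Leaving out LM-EV of experiment 1 or BHLHE40-KD of experiment 2 ended the CTSB call at 0 h (0.0622 and 0.0555) and LM-EV of experiment 1 that at 6 h (0.0503), while the CTSB call at 48 h stood whichever array was left out. CTSA lost its calls without either LM-EV array, and without BHLHE40-KD of experiment 2 at 0 h or of experiment 1 at 6 h (0.0823 to 0.146), and GLA without any 1 of the 4 arrays (0.102 to 0.173) or either LM-EV array at 0 h (0.0558).

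In the core machinery the lines differed at ATG12, ULK1, ATG14 and WIPI2. ATG12 is the ubiquitin-like protein that is joined to ATG5 to help load ATG8 proteins onto the membrane. Its signals were 3618 and 3097 at 0 h, 3421 and 4191 at 6 h and 3539.5 and 4112 at 48 h in BHLHE40-KD cells, against 4619.9 and 5607 at 0 h, 6778 and 7017 at 6 h and 6083 and 6885 at 48 h in LM-EV cells. Both BHLHE40-KD arrays were below both LM-EV arrays at each time, with log2 differences of -0.60 ± 0.15, -0.86 ± 0.15 and -0.76 ± 0.15 (adjusted p = 0.0319, 0.00951 and 0.0161). A second ATG12 probe gave -0.77, -0.91 and -0.79. ATG12 was the 1 called member of 8 in the conjugation system. ATG7, the activating enzyme of both conjugation reactions, was lower on all 6 pairs, with differences of -0.56, -0.51 and -0.46 that did not pass (0.0523, 0.0700 and 0.0957). ATG5, the partner of ATG12, was higher on all 6 pairs and did not pass either (0.25, 0.44 and 0.41). ULK1, the initiating kinase, had signals of 3011 and 2976 at 0 h, 4212 and 4468 at 6 h and 2999 and 3257 at 48 h in BHLHE40-KD cells, against 1735 and 2252 at 0 h, 2920.4 and 3198 at 6 h and 2209 and 2769.8 at 48 h in LM-EV cells. It was higher in BHLHE40-KD cells by 0.60 ± 0.13 at 0 h and 0.51 ± 0.13 at 6 h (adjusted p = 0.0213 and 0.0372). ATG14, which steers the lipid kinase complex to autophagy, was higher at 6 h, at 3891 and 4638 in BHLHE40-KD cells against 2739 and 3098 in LM-EV cells (0.54 ± 0.13, adjusted p = 0.0269). BECN1, the scaffold of the same complex, differed by 0.10, 0.05 and -0.10 and did not pass. Without the slide term ULK1 (adjusted p = 0.0524 and 0.0889), ATG14 (0.0526) and ATG12 at 0 h (0.0520) no longer passed. ATG14 and ULK1 at 6 h and ATG12 at 48 h lost their calls without any 1 of the 4 arrays (0.0676 to 0.165), ULK1 at 0 h without any 1 except BHLHE40-KD of experiment 2 (0.0564 to 0.141), ATG12 at 0 h without any 1 except BHLHE40-KD of experiment 1 (0.0935 to 0.178), and ATG12 at 6 h without any 1 except BHLHE40-KD of experiment 2 (0.0516 to 0.0688). Arrays of other times ended the calls of ULK1 at 6 h (any array at 48 h, 0.0510 to 0.0560) and of ATG12 at 0 h (any LM-EV array at 6 h or 48 h, 0.0520 to 0.0531).

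A transcription factor and a cargo receptor also passed between the lines. TFE3, which switches on lysosomal genes together with TFEB, had signals of 390.2 and 387 at 0 h, 506 and 584 at 6 h and 449 and 527 at 48 h in BHLHE40-KD cells, against 248 and 327 at 0 h, 251 and 266 at 6 h and 276 and 318 at 48 h in LM-EV cells. The LM-EV arrays stayed between 248 and 327 at all times, and all BHLHE40-KD arrays were above them. The log2 difference was 1.07 ± 0.13 at 6 h and 0.72 ± 0.13 at 48 h (adjusted p = 0.00215 and 0.0113), and 0.45 at 0 h just missed (0.0502). The call at 6 h stood whichever array was left out, and that at 48 h was lost without any 1 of the 4 arrays compared (0.0539 to 0.0694). OPTN, a receptor for damaged mitochondria and bacteria, had signals of 2594 and 2024 at 0 h, 2294 and 2724 at 6 h and 1856 and 1800.4 at 48 h in BHLHE40-KD cells, against 3317 and 4064 at 0 h, 4062 and 4699 at 6 h and 3298 and 5101 at 48 h in LM-EV cells. It was lower in BHLHE40-KD cells, with log2 differences of -0.81 ± 0.22 at 6 h and -1.17 ± 0.22 at 48 h (adjusted p = 0.0412 and 0.0132), with -0.68 at 0 h that did not pass (0.0691). The 2 experiments differed in size at 48 h, with log2 differences of -0.83 in experiment 1 and -1.50 in experiment 2, and the call was lost without either array of experiment 2 (0.0804 and 0.0839). At 6 h it was lost without any 1 of the 4 arrays (0.118 to 0.167), any LM-EV array at 0 h or BHLHE40-KD array at 48 h (0.0563 to 0.0648), and without the slide term (0.0546).

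**Figure D3:**
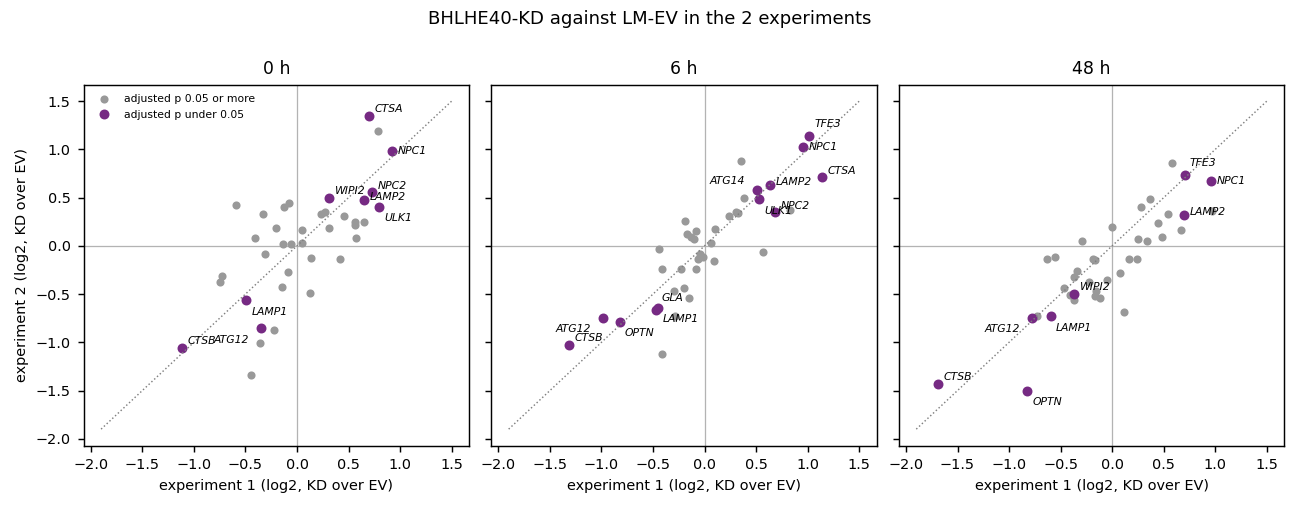
Log2 difference between BHLHE40-KD and LM-EV cells in experiment 1 (x axis) against experiment 2 (y axis) at 0, 6 and 48 h of hypoxia. Each point is 1 of 39 members (NBR1, near background, is left out), purple where the adjusted p was under 0.05, and the dotted line marks equal values. Every called member has the same sign in both experiments, and CTSB lies at the lower left in each panel.

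Because BHLHE40, TFEB and TFE3 share the E-box, the start-site regions of the members were searched for CACGTG, which reads the same on both strands. RefSeq promoter windows of 300 bases (250 before the start site and 50 after it, GRCh38.p14) were found for 35 of the 40 members. The motif occurred in 6 of them (17.1%), ATG14, ATG3, CTSA, CTSD, LAMP1 and MCOLN1, against 8.77% of 27305 genes. The longer form TCACGTGA was in 4 (11.4%, against 1.18%), and ACGTG, which is part of CACGTG and the core of the hypoxia response element, in 15 on either strand (42.9%, against 24.9%). The 27305 genes include ones outside the 12336 tested on the arrays, and these differences in share were not tested. Shown here are the 200 bases before the start site of LAMP1, CTSA, ATG14 and CTSD. In BHLHE40-KD cells LAMP1 passed as lower at all times, CTSA as higher at 0 h and 6 h, and ATG14 as higher at 6 h only. CTSD did not pass between the lines. Capitals mark CACGTG. The windows are chr13:113297039-113297238 on the plus strand for LAMP1, chr20:45891135-45891334 on the plus strand for CTSA, chr14:55411831-55412030 on the minus strand for ATG14 and chr11:1763928-1764127 on the minus strand for CTSD, each written 5′ to 3′ on the gene's strand.
LAMP1: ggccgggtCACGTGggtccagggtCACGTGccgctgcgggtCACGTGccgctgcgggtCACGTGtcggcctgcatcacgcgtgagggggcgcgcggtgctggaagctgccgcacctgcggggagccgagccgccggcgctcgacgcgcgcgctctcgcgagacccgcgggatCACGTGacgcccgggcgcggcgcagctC
CTSA: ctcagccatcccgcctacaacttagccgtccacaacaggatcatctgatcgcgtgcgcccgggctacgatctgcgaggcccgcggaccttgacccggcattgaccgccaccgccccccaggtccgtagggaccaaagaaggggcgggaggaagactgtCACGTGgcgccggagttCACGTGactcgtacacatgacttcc
ATG14: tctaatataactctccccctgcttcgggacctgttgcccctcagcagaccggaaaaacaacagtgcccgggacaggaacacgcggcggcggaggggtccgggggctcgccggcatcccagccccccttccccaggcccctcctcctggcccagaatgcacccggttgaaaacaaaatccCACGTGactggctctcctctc
CTSD: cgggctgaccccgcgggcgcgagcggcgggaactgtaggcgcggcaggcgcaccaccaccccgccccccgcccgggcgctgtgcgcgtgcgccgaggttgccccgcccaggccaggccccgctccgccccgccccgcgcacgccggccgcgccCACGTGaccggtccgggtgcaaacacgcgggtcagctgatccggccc
LAMP1 held 6, with the first at -192 from the start site and the last, of which only the first base is shown, at -1. CTSA had 2, at -42 and -25, ATG14 had 1 at -21 and CTSD had 1 at -47. Members with the motif differed between the lines in both directions or did not pass, and the windows of NPC1, NPC2 and TFE3 did not hold it. Whether the motif had a part in any of these differences was not tested. No window was found for CTSB and LAMP2. These are matches of letters, and binding was not measured.

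Hypoxia changed fewer members, and at 6 h all that passed were higher. In BHLHE40-KD cells 4 members, GABARAPL1, WIPI1, NPC1 and NBR1, were higher at 6 h than at 0 h and none lower, where 5.16% of all genes passed, and in LM-EV cells 1 was higher, where 0.559% passed. By the study's rule 4 members were higher at 6 h in BHLHE40-KD cells and 2 in LM-EV cells, with none lower, against 8.33% and 6.09% of all genes. Both counts of 4 include NBR1. It was tested only because both BHLHE40-KD arrays at 6 h detected it, so its rise there carries no support of its own. The median log2 change over the 40 members was 0.11 in BHLHE40-KD cells and 0.17 in LM-EV cells, while the median of all genes was -0.02 and -0.0012. Arrays at 6 h and 0 h did not overlap for 57.5% of members in each line. Over all genes this held for 46.7% in BHLHE40-KD cells and 44.4% in LM-EV cells. GABARAPL1, an ATG8 family protein that coats the growing autophagosome, passed in both lines. Its signal was 1651 and 2137 at 0 h, 3770.2 and 4042 at 6 h and 1989.6 and 2714 at 48 h in BHLHE40-KD cells, against 1201 and 1731 at 0 h, 2542 and 4225 at 6 h and 1576 and 2615 at 48 h in LM-EV cells. Both arrays at 6 h were above both at 0 h in each line, by 1.06 ± 0.17 on the log2 scale in BHLHE40-KD cells and 1.18 ± 0.17 in LM-EV cells (adjusted p = 0.0214 and 0.0402). At 48 h the change was 0.31 in BHLHE40-KD cells and 0.49 in LM-EV cells, neither passing. Experiment 2 ran above experiment 1 for this gene in all 6 groups, and without the slide term neither call stood (0.149 and 0.222). The call in LM-EV cells was lost without any 1 of the 12 arrays (0.0531 to 0.248), and that in BHLHE40-KD cells without either array at 0 h or that of experiment 1 at 6 h (0.0637 to 0.129).

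WIPI1 and NPC1 passed at 6 h in BHLHE40-KD cells. WIPI1, which binds the phosphoinositide at the forming membrane, had signals of 1292 and 1389 at 0 h, 2497 and 2644 at 6 h and 1389.5 and 1368 at 48 h in BHLHE40-KD cells, against 1416 and 1373 at 0 h, 1997 and 2088 at 6 h and 1177 and 1507 at 48 h in LM-EV cells. All arrays at 6 h were above all at 0 h and 48 h in both lines. The log2 change at 6 h was 0.94 ± 0.13 in BHLHE40-KD cells (adjusted p = 0.0139) and 0.55 ± 0.13 in LM-EV cells, which did not pass (0.101). At 48 h it was 0.04 and -0.07. NPC1 was 0.75 ± 0.13 higher at 6 h in BHLHE40-KD cells (adjusted p = 0.0234) and 0.71 ± 0.13 in LM-EV cells, where it met the study's rule but not the limma threshold (0.0673). In BHLHE40-KD cells WIPI1 and NPC1 each lost the call without any 1 of the 4 arrays (0.0549 to 0.131). ULK1 was higher at 6 h than at 0 h on both slides in both lines, by 0.54 in BHLHE40-KD cells and 0.63 in LM-EV cells (0.0652 and 0.0782, not passing). MAP1LC3B, the family member most used to count autophagosomes, had signals of 3205 and 3874 at 0 h, 4435 and 4828 at 6 h and 2976 and 2998 at 48 h in BHLHE40-KD cells, against 3379 and 2855 at 0 h, 3775 and 3906 at 6 h and 3393 and 3294 at 48 h in LM-EV cells. Its change at 6 h was 0.39 in BHLHE40-KD cells and 0.31 in LM-EV cells, and at 48 h -0.24 and 0.11, none of which passed. The remaining ATG8 genes, GABARAP and GABARAPL2, did not pass in any comparison, and GABARAP was 179.9 and 229 at 0 h, 177 and 365 at 6 h and 176 and 445 at 48 h in BHLHE40-KD cells, against 245 and 579 at 0 h, 237 and 791 at 6 h and 197 and 639.6 at 48 h in LM-EV cells, so that experiment 2 exceeded experiment 1 in every group.

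**Figure D4:**
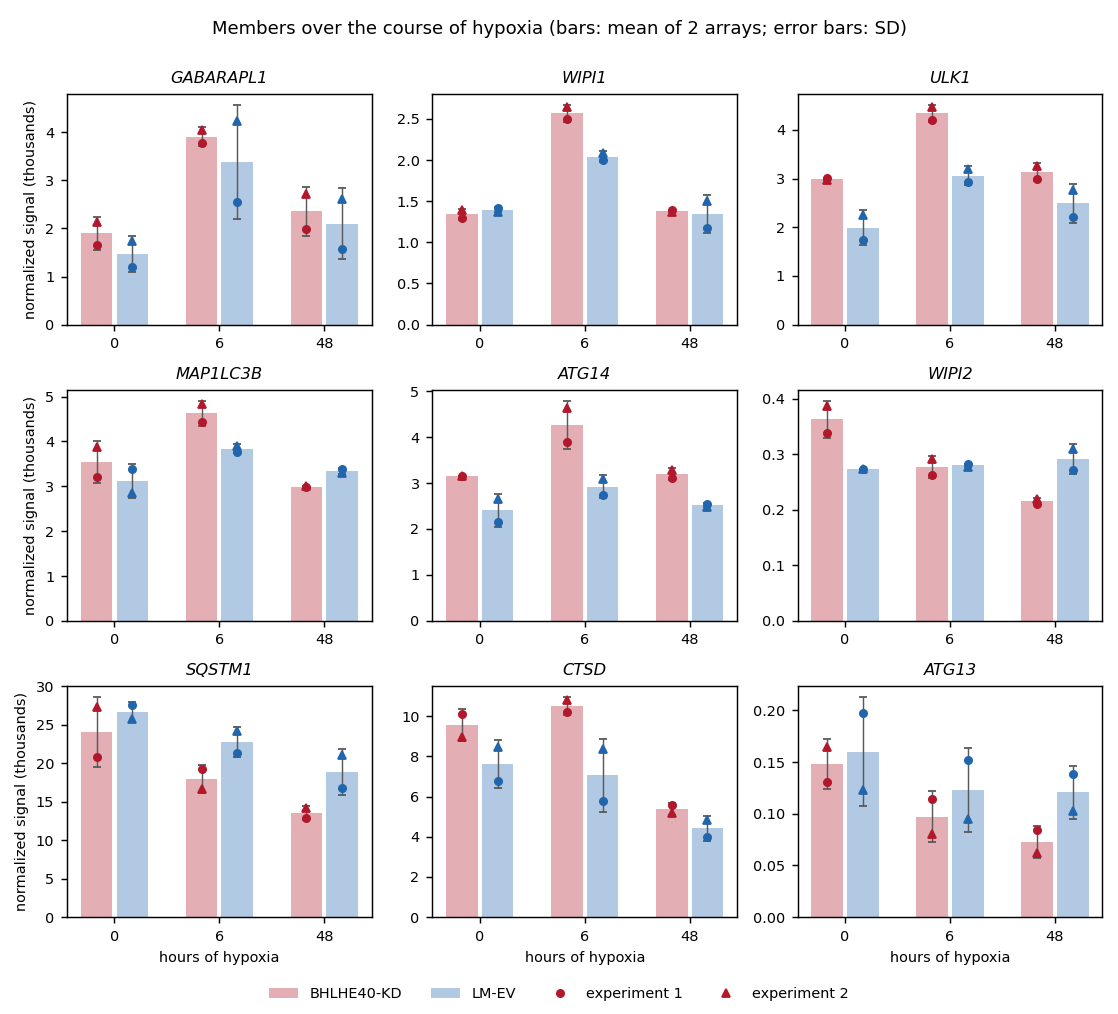
Normalised signal (arbitrary units divided by 1000) of 9 members against hours of hypoxia, BHLHE40-KD in red and LM-EV in blue, with means of 2 arrays as bars, SD as error bars, and circles and triangles for experiments 1 and 2. GABARAPL1 and WIPI1 are highest at 6 h in both lines, and SQSTM1 and CTSD are lowest at 48 h.

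At 48 h the members that passed were lower, and all of them in BHLHE40-KD cells. There 3 members were lower than at 0 h and none higher, where 5.18% of all genes passed. In LM-EV cells 0 of 40 passed, where 1.88% of all genes did (limma). An unadjusted p under 0.05 was found in LM-EV cells for 8 of 40 members and for 2567 of 12336 genes. Arrays at 48 h and 0 h did not overlap for 50% of members in BHLHE40-KD cells and 25% in LM-EV cells. Over all genes these shares were 46.9% and 45.8%. By the study's rule 4 members were lower in BHLHE40-KD cells and 1, NBR1, met it upwards without being detected at either time (background 9.21%), and 1 was lower in LM-EV cells (7.69%). SQSTM1, the receptor p62 that links ubiquitinated cargo to ATG8 proteins, had signals of 20856 and 27294 at 0 h, 19261 and 16639.7 at 6 h and 12929 and 14235 at 48 h in BHLHE40-KD cells, against 27630.1 and 25732 at 0 h, 21374 and 24155 at 6 h and 16737 and 21023 at 48 h in LM-EV cells. Its log2 change at 48 h was -0.81 ± 0.17 in BHLHE40-KD cells (adjusted p = 0.0423) and -0.51 ± 0.17 in LM-EV cells, which did not pass (0.148). In both lines the arrays at 48 h were below those at 0 h. CTSD had signals of 10107 and 8988 at 0 h, 10199.8 and 10828 at 6 h and 5572 and 5167 at 48 h in BHLHE40-KD cells, against 6795 and 8484 at 0 h, 5759.7 and 8343 at 6 h and 3976 and 4855 at 48 h in LM-EV cells. It was lower at 48 h than at 0 h in BHLHE40-KD cells (-0.83 ± 0.19, adjusted p = 0.0499), and the difference of -0.79 ± 0.19 in LM-EV cells met the study's rule without passing (0.0793). WIPI2, the relative of WIPI1 that recruits the ATG12 complex, had signals of 339 and 387 at 0 h, 263 and 291 at 6 h and 211 and 220.1 at 48 h in BHLHE40-KD cells, against 273 and 274 at 0 h, 282 and 278 at 6 h and 272 and 310.0 at 48 h in LM-EV cells. It was lower at 48 h than at 0 h in BHLHE40-KD cells (-0.75 ± 0.11, adjusted p = 0.0202), and its LM-EV arrays stayed between 272 and 310 at all times. WIPI2 was higher in BHLHE40-KD than in LM-EV cells at 0 h (0.40, adjusted p = 0.0465) and lower at 48 h (-0.43, adjusted p = 0.0408), comparisons that share arrays with the hypoxia one. ATG13, the ULK1 partner, had signals of 131 and 165 at 0 h, 114 and 80.0 at 6 h and 83.8 and 61.9 at 48 h in BHLHE40-KD cells, against 198 and 123 at 0 h, 152 and 94.5 at 6 h and 139 and 103 at 48 h in LM-EV cells. At 48 h it met only the study's rule, both against 0 h in BHLHE40-KD cells (-1.03, adjusted p = 0.0561) and against LM-EV cells (-0.73, 0.0813). Without the slide term the calls of SQSTM1 (0.0566), CTSD (0.0751) and WIPI2 between the lines (0.0848 and 0.0764) were lost. The 3 hypoxia calls at 48 h were lost without any 1 of the 4 arrays (0.0557 to 0.232), CTSD also without any 1 of the other 8 (0.0590 to 0.0834) and SQSTM1 without any 1 of the LM-EV arrays (0.0589 to 0.0728). Between the lines, the WIPI2 call at 0 h was lost without any 1 of the 12 arrays (0.0632 to 0.224), and that at 48 h without any 1 except the BHLHE40-KD arrays of 0 h (0.0564 to 0.196).

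Whether the 2 lines responded differently to hypoxia was tested as an interaction, and no member passed. At 6 h 0 of 40 members did (0.0243% of all genes) and 2 had an unadjusted p under 0.05, as did 756 of 12336 genes. At 48 h 0 of 40 did (0.00%) and 4 had an unadjusted p under 0.05, as did 834 of 12336 genes. WIPI2 had the smallest p among the members, with an interaction of -0.83 ± 0.16 on the log2 scale at 48 h (BHLHE40-KD minus LM-EV, adjusted p = 0.349). For TFE3 at 6 h it was 0.63 ± 0.18 (0.732), with a change of 0.49 in BHLHE40-KD cells and -0.14 in LM-EV cells. For GABARAPL1 at 6 h it was -0.13 ± 0.24 and for NPC1 0.04 ± 0.18. The median SE of an interaction was 0.255 over all genes, against 0.180 in the other comparisons.

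Of the 40 members 22 passed in none of the 9 comparisons. The share of all genes that passed in none was not counted, so the 22 are not read as many or few. Leaving aside TFEB, their log2 differences between the lines ranged between -0.89 (GABARAP at 0 h) and 0.99 (CTSZ at 0 h), and their changes in hypoxia between -1.03 (ATG13 at 48 h) and 0.59 (ATG5 at 48 h), both in BHLHE40-KD cells. They include both lipid suppliers, ATG2A and ATG9A, 7 of the 8 conjugation genes, and BECN1, PIK3C3 and UVRAG of the nucleation complex. UVRAG was lower in BHLHE40-KD cells on all 6 pairs (-0.52, -0.32 and -0.45), and its second probe gave -0.63, -1.01 and -1.33, none passing. In hypoxia the 2 UVRAG probes differed in sign in LM-EV cells. PIK3C3, the lipid kinase itself, differed between the lines by -0.29, -0.03 and -0.30. ATG2A, which carries lipid to the growing membrane, and ATG9A, which travels there on vesicles, stayed between -0.30 and 0.14 in the line comparisons, and the largest change of either in hypoxia was 0.46 (ATG2A at 6 h in LM-EV cells). Of the enzymes and partners of conjugation, ATG3, ATG4A, ATG4B, ATG10 and ATG16L1 lay between -0.33 and 0.43 in the line comparisons. HEXA, a subunit of hexosaminidase, was above LM-EV on all 6 pairs with differences of 0.28, 0.32 and 0.16, and PSAP, the precursor of the saposins that help digest sphingolipids, differed by 0.00, -0.23 and -0.33. NBR1, a cargo receptor, and TFEB were close to background, detected on 3 and 4 of 12 arrays. NBR1 had signals of -21.2 and 8.72 at 0 h, 84.0 and 54.5 at 6 h and 39.9 and 43.9 at 48 h in BHLHE40-KD cells, against 32.1 and 5.16 at 0 h, 38.0 and 82.0 at 6 h and 26.3 and 14.2 at 48 h in LM-EV cells. It was not well above background at 0 h in either line, so only bounds can be given: it was at least 1.49-fold higher at 6 h than at 0 h in BHLHE40-KD cells (adjusted p = 0.0483), and the same bound in LM-EV cells was 1.32-fold with no call (0.209). No fold can be given at 48 h, where NBR1 was detected on no array of either line. Only BHLHE40-KD cells at 6 h detected NBR1 on both arrays. It was thus tested only through the group in which it was called, and the call is no separate support. The NBR1 call at 6 h was lost without the slide term (0.0555), without any 1 of the 4 arrays (0.112 to 0.206), and without any LM-EV array at 0 h or 48 h or BHLHE40-KD array at 48 h (0.0623 to 0.0721). TFEB had signals of 39.3 and 17.3 at 0 h, 47.5 and 53.2 at 6 h and 30.8 and 27.5 at 48 h in BHLHE40-KD cells, against 46.0 and 31.6 at 0 h, 49.6 and 58.5 at 6 h and 28.6 and 44.4 at 48 h in LM-EV cells, which overlapped between the lines.

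Beyond the members, 160 other genes of the pathway were listed by role in 9 lists, of which 143 were tested. In BHLHE40-KD against LM-EV cells 20 were higher and 9 lower at 0 h, 18 higher and 11 lower at 6 h, and 13 higher and 14 lower at 48 h. These are 20.3%, 20.3% and 18.9% of the genes tested, close to the 18.2%, 18.4% and 16.5% of all genes. In hypoxia of 6 h 6 were lower and 0 higher in BHLHE40-KD cells (4.20%, against 5.16% of all genes). In LM-EV cells 0 passed (limma), where 0.559% of all genes did. An unadjusted p under 0.05 was found in LM-EV cells for 15 of 143 listed genes and for 2168 of 12336 genes. At 48 h 1 was higher and 7 lower in BHLHE40-KD cells (5.59%, against 5.18%), and 1 higher and 1 lower in LM-EV cells (1.40%, against 1.88%). The median log2 difference between the lines was 0.15, 0.14 and 0.05 at the 3 times, against 0.02, 0.01 and 0.01 over all genes. Lysosomal hydrolases and their activators made up the longest list. Of its 32 genes tested 11 were higher and 3 lower in BHLHE40-KD cells at 0 h, 8 higher and 3 lower at 6 h, and 7 higher and 5 lower at 48 h (43.8%, 34.4% and 37.5%), shares above those of all genes by differences that were not tested. CTSH, an aminopeptidase, was higher in BHLHE40-KD cells (1.32, 1.27 and 1.03), as were IDUA (1.61, 1.68 and 1.59) and MANBA (1.48, 1.12 and 1.40), a pair of glycosidases. CTSF, a cysteine cathepsin, was lower (-1.77, -1.67 and -1.56). CTSS, the cathepsin known from antigen presentation, was not above background in BHLHE40-KD cells. It was at least 2.83-fold lower there than in LM-EV cells at 0 h (adjusted p = 0.000532), and at 6 h the bound was 2.16-fold (0.000707). CTSS was tested only through LM-EV groups, in which it was high, so these calls are no separate support. At 48 h, where 1 of the 2 LM-EV arrays detected it, the bound was only 1.03-fold. MAP1LC3A, the relative of MAP1LC3B, had signals of 480.2 and 514 at 0 h, 529 and 663 at 6 h and 429 and 786 at 48 h in BHLHE40-KD cells, against 1671 and 2825, 2353 and 3254, and 2148 and 3222 at the same times in LM-EV cells. Its log2 difference was -2.13, -2.22 and -2.18 (adjusted p = 0.000743, 0.000566 and 0.000701), and the groups did not overlap. Among cargo receptors RETREG1, which works in the turnover of the endoplasmic reticulum, was higher in BHLHE40-KD cells (2.14, 1.60 and 1.49), and so was CCPG1 (1.26, 1.39 and 0.99). At 0 h RETREG1 was 370 and 311 in BHLHE40-KD cells against 47.0 and 126 in LM-EV cells. The LM-EV array of experiment 1 was close to its lowest detected signal at 0 h (42.3) and at 6 h (51.4, against 49.3), so the RETREG1 folds are uncertain. RRAGB, a GTPase that ties mTORC1 to the lysosome, was higher (1.48, 1.58 and 1.63). Of the vacuolar ATPase, which acidifies the lysosome, ATP6V1B2 was lower (-0.82, -1.01 and -1.16). BNIP3, the mitophagy receptor known as a hypoxia gene, was the 1 listed gene called higher at 48 h in BHLHE40-KD cells (0.95, adjusted p = 0.0255, limma). In LM-EV cells its signal also went up, from 24927 and 25538 at 0 h to 42137 and 49270 at 48 h, without passing. The calls of these other genes were not refitted with arrays left out.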

How the data were processed

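Total RNA of the 12 samples was hybridised to Illumina HT-12 BeadChips. The authors processed the scans in GenomeStudio (no version is given in the sources used here), and the deposited values are background-subtracted, quantile-normalised intensities, with a deposited detection p-value for each probe and array. The normalised intensities were used throughout. The separately deposited bead intensities served only to check the columns, because 5 columns of experiment 2 differed in rank order from the normalised ones (rank correlation 0.816 to 0.904). Quantile normalisation gives every array the same distribution, so a shift of all genes at once would not be seen.

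Probes were named from the platform annotation (30105 probes with 1 symbol, 8 with several and 17189 with none), and those with several or no symbol were named by no gene. Probes were kept where some group had a detection p under 0.05 on each of its 2 arrays (22207 of 47302), and each gene was tested on its kept probe with the highest mean log2 signal. Values under 16 (38.7%) were set to 16 before log2. A fold change of a gene near that floor is understated. limma 3.58.1 in R 4.3.3 was fitted to 6 groups blocked by slide (degrees of freedom: 5 residual, 2.43 from the prior), with 9 comparisons each adjusted over 12336 genes by the Benjamini-Hochberg method. The slide was kept as a block because each slide held every group once: over 15 pairs of groups, deviations of arrays on the same slide correlated at -0.0229 to 0.284 (median 0.163, 13 pairs above 0.1). Leaving out an array leaves a group with 1 array, whose spread is then taken from the other groups.

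Members were named in full if they passed in any comparison or met the study's rule of 1.5-fold in both experiments; the ATG8 family and a few landmark genes were named regardless. The members, the lists and the rule were chosen with earlier results of these data known. Alternatives were no slide term, floors of 8 and 64, stricter and no detection filters, all probes, a trended prior, other fold thresholds and each array left out. Group levels of a probe not detected on either array of a group were set to the lowest detected signal for "at least" folds, using means of log2 values. Promoter sequences came from RefSeq (GRCh38.p14).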

Additional observations from a re-analysis of the deposited data

How the results depend on the processing

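None of the 37 calls of members changed direction under the alternatives tried; differences that did not pass were not followed in this way. Of the 37 calls, 23 stood without the slide term (no replicate block), 36 with a floor of 64 and 36 with a floor of 8, 36 of 36 with a detection p under 0.01 on all 12 arrays, 28 with no detection filter, 26 with every detected probe tested, 34 with a trended prior and 19 to 24 with 1 array left out. Those that stood in all of these settings were TFE3 at 6 h, NPC1 at 0 h and 6 h and CTSB at 48 h, all between the lines. Beyond the slide term and single arrays, no detection filter also ended the calls of ATG12 at 0 h, GABARAPL1 in LM-EV cells, SQSTM1, NBR1, OPTN at 6 h, CTSA, CTSD and GLA. Testing every probe ended those of ULK1 at 6 h, WIPI2 between the lines, GABARAPL1 in LM-EV cells, SQSTM1, NBR1, OPTN at 6 h, LAMP2 at 48 h, NPC2 at 6 h, CTSD and GLA. The trended prior ended both WIPI2 calls between the lines and NBR1, the floor of 64 NBR1 and the floor of 8 CTSD. The causes were not tested, other than that more features are tested without a filter and with every probe.

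Without the slide term the count of members passing was 2 for hypoxia of 6 h in BHLHE40-KD cells (4 with it), 1 for 48 h (3), 0 for 6 h in LM-EV cells (1) and 7 between the lines at 6 h (12). The strict detection filter gave 5 members for 48 h in BHLHE40-KD cells, 4 for 6 h and 2 for 48 h in LM-EV cells and 15 between the lines at 0 h (9 in the reported fit). The trended prior gave 6 for 48 h in BHLHE40-KD cells, 4 for 6 h and 5 for 48 h in LM-EV cells, and 14 between the lines at 0 h and 14 at 48 h (8). No filter and every probe each gave 1 for 48 h in BHLHE40-KD cells and 0 for 6 h in LM-EV cells, where a floor of 64 gave 3. With 1 array left out the counts were 0 to 4 for 6 h and 0 to 2 for 48 h in BHLHE40-KD cells, 0 for 6 h in LM-EV cells, and 1 to 9, 2 to 14 and 2 to 10 between the lines at 0, 6 and 48 h. Under the study's rule a 2-fold threshold left 1 and 1 members in BHLHE40-KD cells at 6 h and 48 h, 1 and 0 in LM-EV cells, and 1, 2 and 1 between the lines. A 1.3-fold threshold gave 8 for 48 h in BHLHE40-KD cells, 5 and 4 in LM-EV cells, and 9 and 13 between the lines at 0 h and 6 h. The strict filter gave 3 for 48 h in BHLHE40-KD cells. With 1 experiment alone, chosen after seeing the data, the rule gave 4 to 12 and 6 to 11 members in BHLHE40-KD cells, 4 to 5 at each time in LM-EV cells, and 8 to 12, 10 to 13 and 10 to 12 between the lines. With 2 arrays a group, the number of arrays limits the precision throughout.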
